A study of Mus musculus with 8 samples.

Results

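The laminin and integrin genes of mouse islets were examined as 1 group: the chains of laminin, the matrix proteins that hold laminin in place, and the receptors that bind it. Members were taken by gene symbol, as every Lama, Lamb or Lamc gene with a number, every Itga or Itgb gene with a number, the integrin subunits Itgad, Itgae, Itgal, Itgam, Itgav and Itgax, and Nid1, Nid2, Hspg2, Agrn, Dag1 and Bcam. This gave 47 of the 32531 gene symbols in the count table. Of these, 45 passed the filter on low values (10 counts or more in 4 or more libraries) and were tested among 15082 genes, whereas Itga11 and Itgb1bp2 were too low to test. The symbol rule also takes Itgb1bp1, Itgb1bp2 and Itgb3bp, which are named for integrins but encode no subunit.

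Whole isolated islets of 4 control mice were compared with those of 4 β-tetO-NICD mice. Every mouse carried RIP-Cre, in which the rat insulin promoter directs the recombinase to β cells, and Rosa26-rtTA, which supplies the Dox-dependent activator after recombination. Control mice lacked tetO_NICD and β-tetO-NICD mice carried it, so that Dox switched on NICD, the intracellular domain that the Notch1 receptor releases when it is active. Both genotypes received Dox for 8 weeks on a mixed background of C57BL/6J, 129X1/SvJ and BALB/c. The transgene is thus aimed at β cells, whereas the RNA came from all cells of the islet. In these counts, fewer cells of a type cannot be told apart from less RNA per cell. The study itself reported an unchanged ratio of β to α cells, against Cre-negative controls. It also reported no change in islet endothelial cells and macrophages. Columns of β-tetO-NICD libraries are numbered 1, 2, 4 and 5 in the table, and 4 and 5 were tied to the group but not to a single mouse.

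Laminins are cross-shaped trimers of 1 α, 1 β and 1 γ chain that polymerize on cell surfaces into the sheet of a basement membrane. Nidogens and perlecan link that sheet to collagen IV, and agrin links it to dystroglycan. Integrins are receptors of 1 α and 1 β subunit that couple matrix or neighbouring cells to the cytoskeleton. The α subunit largely sets the ligand: laminin, collagen, proteins with an RGD motif such as fibronectin and vitronectin, or counter-receptors on other cells for the leukocyte integrins. In mouse islets the basement membrane lies mainly along capillaries, and β cells touch it through integrins that contain β1.

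Libraries held 21701223 to 26413146 counts. At this depth the floor of 3 counts, which covers counting error only, lay between 0.114 and 0.138 CPM, the usual scaling of counts to the size of the library. Notch1, the gene whose intracellular part the transgene encodes, averaged 56.8 ± 10.7 CPM in the control group against 1029.2 ± 331 CPM in the β-tetO-NICD group (SD, n = 4 each), with no overlap. Islets for gene expression were stated to be from males, but counts of the Y-linked Eif2s3y were present in 2 of 4 control and 1 of 4 β-tetO-NICD libraries. A pair of libraries went against their own groups in how counts depended on transcript length. Across 14659 genes, Spearman's rho between transcript length and a library's deviation from the mean of all libraries was 0.418, 0.467, -0.174 and 0.497 in Control 1 to 4, and 0.446, -0.521, -0.360 and -0.515 in β-tetO-NICD 1, 2, 4 and 5. Control 3 therefore gave relatively few counts to long genes, like most β-tetO-NICD libraries, and β-tetO-NICD 1 gave relatively many, like most controls. This matters here because matrix genes are long. Fits without 1 or both of these libraries are therefore given as well.

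Notch signals to genes through RBPJ, a DNA-binding protein whose motif has the core TGGGAA, and promoter sequences are shown for the only member that fell and for matrix genes that carry this core. RefSeq promoters of GRCm38.p6, 250 bases before to 50 after the start, were matched for 31 of 47 members, with 36 promoters. TGGGAA on either strand was present in a promoter of 7 of these members, Dag1, Hspg2, Itga2b, Lama2, Lamb1, Lamb3 and Nid1, in 8 of the 36 promoters, 22.2%, and in 25.6% of all 32851 promoters of the same length. None of the 7 passed the test between groups. Lama1 and Itgae had no entry. The Itgav promoter, whose gene encodes the αv subunit, is at chr2:83724147-83724446 on the plus strand and holds no TGGGAA on either strand. Windows around the core are at chr10:27616946-27616975 on the minus strand for Lama2, at chr12:31265043-31265071 and chr12:31265080-31265109 on the plus strand for Lamb1, at chr1:193301769-193301798 and chr1:193302066-193302095 on the plus strand for Lamb3, in 2 promoters, at chr13:13437432-13437461 on the plus strand for Nid1 and at chr4:137468758-137468787 on the plus strand for Hspg2. Capitals mark the core, which reads TTCCCA in the second Lamb3 window, where it lies on the opposite strand. The windows of the receptor genes Dag1 and Itga2b are not shown.
Itgav: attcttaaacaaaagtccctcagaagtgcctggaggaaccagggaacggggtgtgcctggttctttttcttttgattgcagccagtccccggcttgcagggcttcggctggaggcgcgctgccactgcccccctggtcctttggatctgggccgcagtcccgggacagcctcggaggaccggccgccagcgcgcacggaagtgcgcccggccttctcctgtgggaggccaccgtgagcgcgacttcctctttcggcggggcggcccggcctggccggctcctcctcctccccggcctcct
Lama2: aaggcccaggccTGGGAAggggtggggact
Lamb1: cttgctccactTGGGAAgcgcgcccagaa
Lamb1: gccagcccacgcTGGGAActcaagtaccaa
Lamb3: acctactagactTGGGAAggtgccaaattt
Lamb3: ggggaccccacaTTCCCAgggagctctccg
Nid1: gatccggaatgcTGGGAAccaacgcccact
Hspg2: gggggtggggggTGGGAAagaggcgagcag
A match of these letters is a description of the sequence, and no binding was measured.

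In β-tetO-NICD islets, transcripts of 2 members were higher and of 1 was lower at an adjusted p under 0.05 (edgeR's quasi-likelihood test, Benjamini-Hochberg over all genes). Lama1, the α1 chain of laminin, rose 12.7-fold from a level near the floor. Itgae, the αE subunit of a lymphocyte integrin, rose 3.25-fold from a low level. Itgav, the αv subunit that binds fibronectin, vitronectin and latent TGF-β, fell from 101 to 52.6 CPM and was among the more abundant members. These 3 of 45 tested members, 6.67%, compare with 6.76% of all tested genes. By direction, 4.44% of members and 4.19% of all genes were higher, and 2.22% of members and 2.57% of all genes were lower. An unadjusted p under 0.05 was reached by 9 members, 20% of those tested, beside 31.6% of all genes. As a group, then, laminins and integrins were not called more often than other genes. The groups did not overlap in 4 members, Lama1, Itgae and Itgav among them, 8.89% of those tested, beside 16.1% of all genes.

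**Figure D1:**
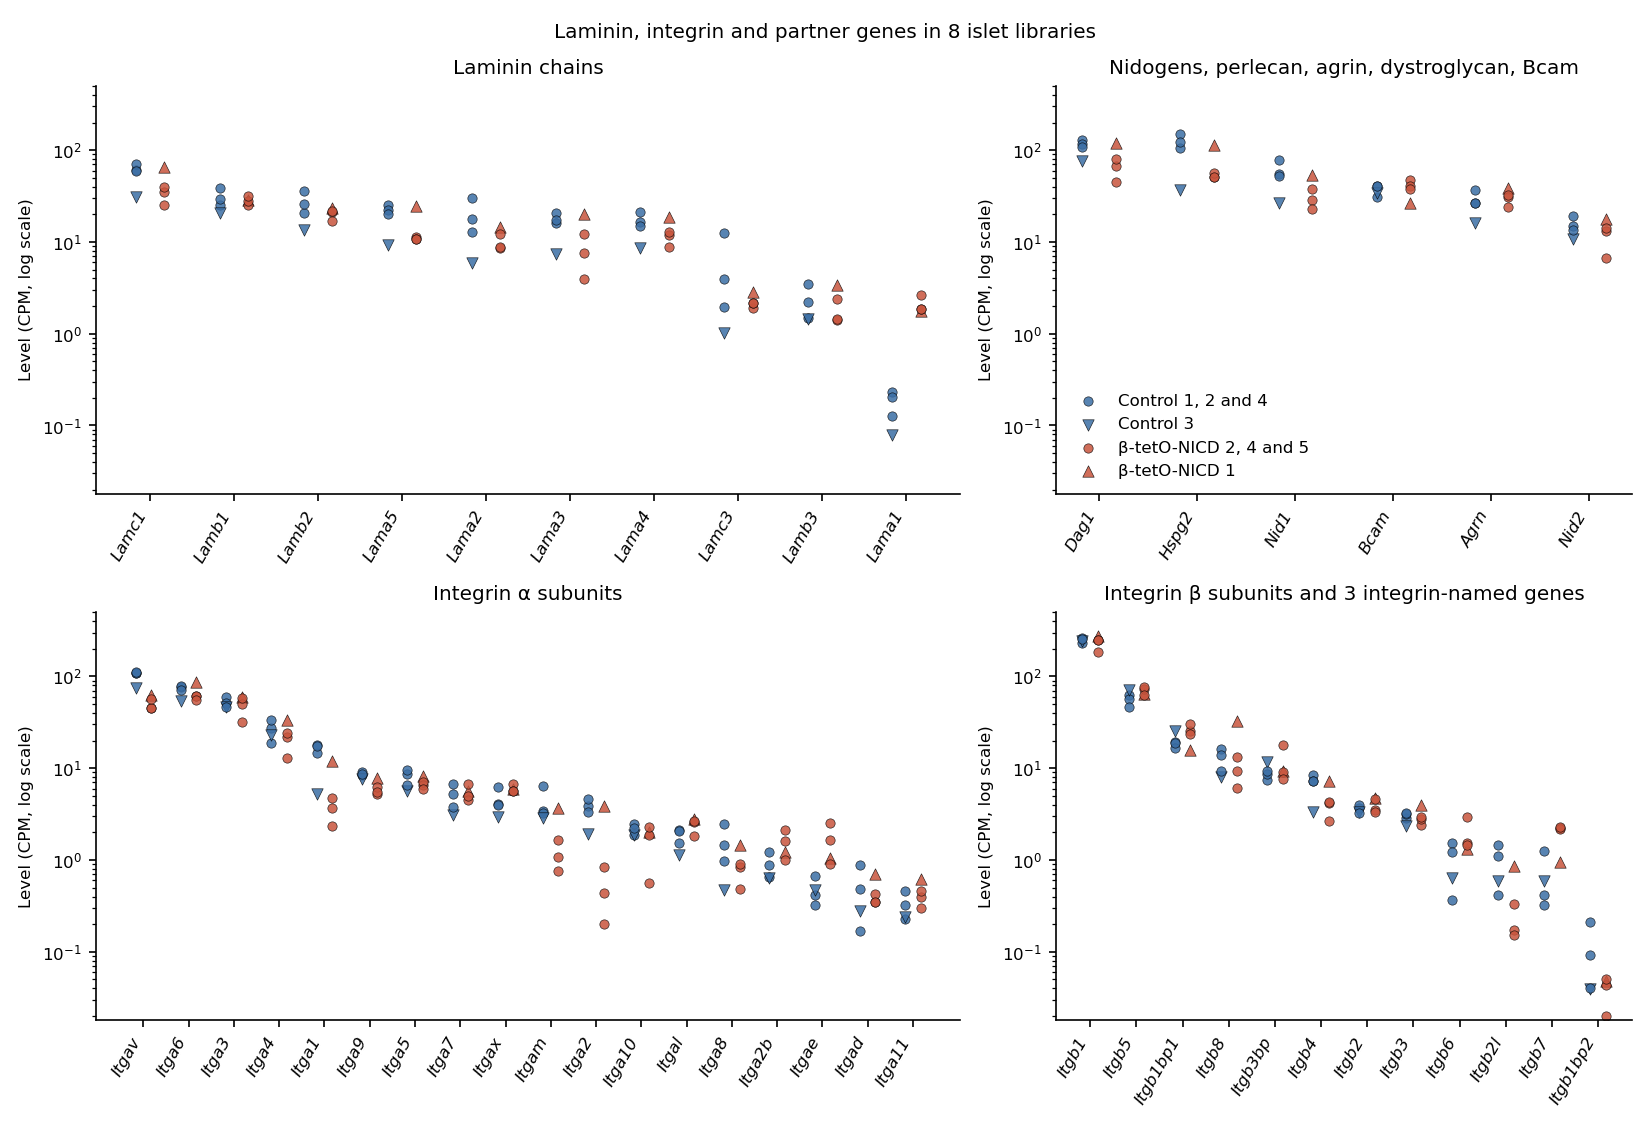
Level of 46 of the 47 members in every library, in CPM on a log scale, by family and in order of the control mean. Circles are single libraries, Control 3 is a triangle pointing down, β-tetO-NICD 1 is a triangle pointing up, and a count of 0 (Itgb1bp2) is drawn at the lower edge. Lama1 sits apart in the groups, and Control 3 is the lowest control in every laminin, nidogen, perlecan and agrin gene drawn.

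The laminin α chains set where a laminin is found and which receptor it binds. Lama1 (chr17:67697259-67822647, GRCm38, plus strand) encodes α1, typical of the early embryo and of a few adult epithelia. It had 5, 3, 2 and 5 counts in Control 1 to 4 and 37, 43, 56 and 52 counts in β-tetO-NICD 1, 2, 4 and 5. In CPM this was 0.23, 0.13, 0.08 and 0.20 against 1.76, 1.88, 1.86 and 2.62. Every β-tetO-NICD library lay above every control, and Control 2 and Control 3 were at or under the floor of 3 counts. The log2 fold change was 3.63 (SE 0.38, adjusted p = 0.000727, edgeR). It passed the filter on low counts through the β-tetO-NICD libraries alone, and with 10 counts asked of 4 libraries it could not be tested when any of these was left out. It was called in every one of 8 fits that left out 1 library and asked for 10 counts in 3 libraries, a filter it again passed only through that group, at log2 fold changes of 3.41 to 3.86. The level reached was still low per length, 0.213 ± 0.0417 CPM per kb of longest transcript (SD, n = 4).

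The other α chain genes did not pass the test. Lama4, the α4 chain of vessel walls, had the highest level per length in controls, 2.53 ± 0.853 CPM per kb (SD, n = 4). Its values were 16.3, 21.1, 8.62 and 15.0 CPM in Control 1 to 4 and 18.7, 11.8, 12.9 and 8.81 CPM in β-tetO-NICD libraries (log2 fold change -0.23, SE 0.30, adjusted p = 0.605, edgeR). The ranges overlapped widely, with Control 3 lowest and Control 2 highest. Lama5, the α5 chain that accompanies α4 in capillary basement membranes, had 9.33 to 25.3 CPM in controls and 10.7 to 24.4 CPM in β-tetO-NICD islets. β-tetO-NICD 1 stood alone in its group at 24.4 CPM, with the others at most at 11.4. Lama2, the chain of muscle and nerve basement membranes, ranged from 5.85 to 30.04 CPM in controls and from 8.64 to 14.7 CPM in β-tetO-NICD islets. Lama3, an epithelial chain, ranged from 7.35 to 20.6 CPM and from 3.93 to 19.9 CPM.

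As shares of the summed α chain level per kb, Lama4 made up 35.0% ± 3.57 in controls and 37.5% ± 2.44 in β-tetO-NICD islets (SD, n = 4 each). The order was the same in both groups, with Lama4 first, but the means of Lama5, Lama2 and Lama3 lay within their spread of one another, at 23.1% ± 4.06, 21.9% ± 6.07 and 19.7% ± 1.13 in controls. Lama1 was 0.236% ± 0.0796 in controls and 4.15% ± 2.04 in β-tetO-NICD islets (SD, n = 4 each). Its share was 2.09% in β-tetO-NICD 1, 4.13% in 2, 3.44% in 4 and 6.94% in 5, so that it remained the smallest α chain in every library.

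**Figure D2:**
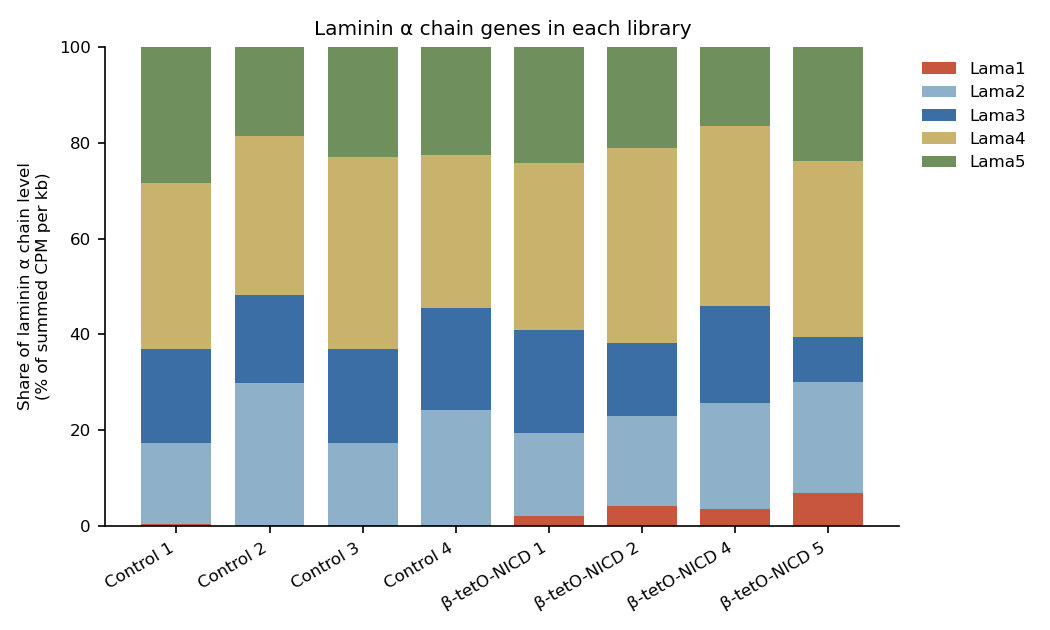
Share of each laminin α chain gene in the summed α chain level of each library, in percent of CPM per kb of longest transcript. Bars are single libraries. Lama1 is a thin band of at most 0.310% in controls and takes 2.09% to 6.94% in β-tetO-NICD libraries, while Lama4 is the largest share in all 8.

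The β and γ chains are shared by many laminins. Lamc1, the γ1 chain of most basement membranes, was the most abundant of them per length at 7.29 ± 2.27 CPM per kb in controls (SD, n = 4). It had 61.1, 71.4, 30.9 and 59.0 CPM in Control 1 to 4 and 65.6, 35.3, 39.4 and 25.3 CPM in β-tetO-NICD libraries. Control 3 was near the β-tetO-NICD values and β-tetO-NICD 1 near the control values (log2 fold change -0.43, SE 0.32, adjusted p = 0.364, edgeR). Lamb1 and Lamb2, the β1 and β2 chains, averaged 28.5 ± 7.46 and 24.0 ± 9.52 CPM in controls and 28.2 ± 2.51 and 20.9 ± 2.81 CPM in β-tetO-NICD islets (SD, n = 4 each).

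Lamb3, the epithelial β3 chain, had 1.46 to 3.5 CPM in controls and 1.40 to 3.42 CPM in β-tetO-NICD islets, ranges that nearly coincided. Lamc3, the γ3 chain, ranged from 1.03 to 12.6 CPM in controls, with 12.6 CPM in Control 2 and at most 3.97 CPM in the others, and from 1.92 to 2.85 CPM in β-tetO-NICD islets.

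Nidogen 1 (Nid1), the main laminin-to-collagen IV linker, led its family per length at 8.61 ± 3.41 CPM per kb in controls (SD, n = 4). Its values were 54.3, 77.3, 26.4 and 51.8 CPM in controls and 53.7, 28.5, 38.2 and 22.9 CPM in β-tetO-NICD libraries (log2 fold change -0.55, SE 0.34, adjusted p = 0.273, edgeR). Perlecan (Hspg2), a large heparan sulfate proteoglycan, had 106, 150, 36.5 and 124 CPM against 115, 51.5, 55.9 and 51.6 CPM. Control 3 was the lowest library of all and β-tetO-NICD 1 lay among the controls (log2 fold change -0.61, SE 0.41, adjusted p = 0.318, edgeR). Nid2 ranged from 10.9 to 19.0 CPM in controls and from 6.65 to 17.9 CPM in β-tetO-NICD islets. Agrin (Agrn), which clusters dystroglycan and synaptic receptors, went the other way, with 16.0 to 36.6 CPM in controls and 24.1 to 38.7 CPM in β-tetO-NICD islets (log2 fold change 0.26, SE 0.24, adjusted p = 0.464, edgeR).

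**Figure D3:**
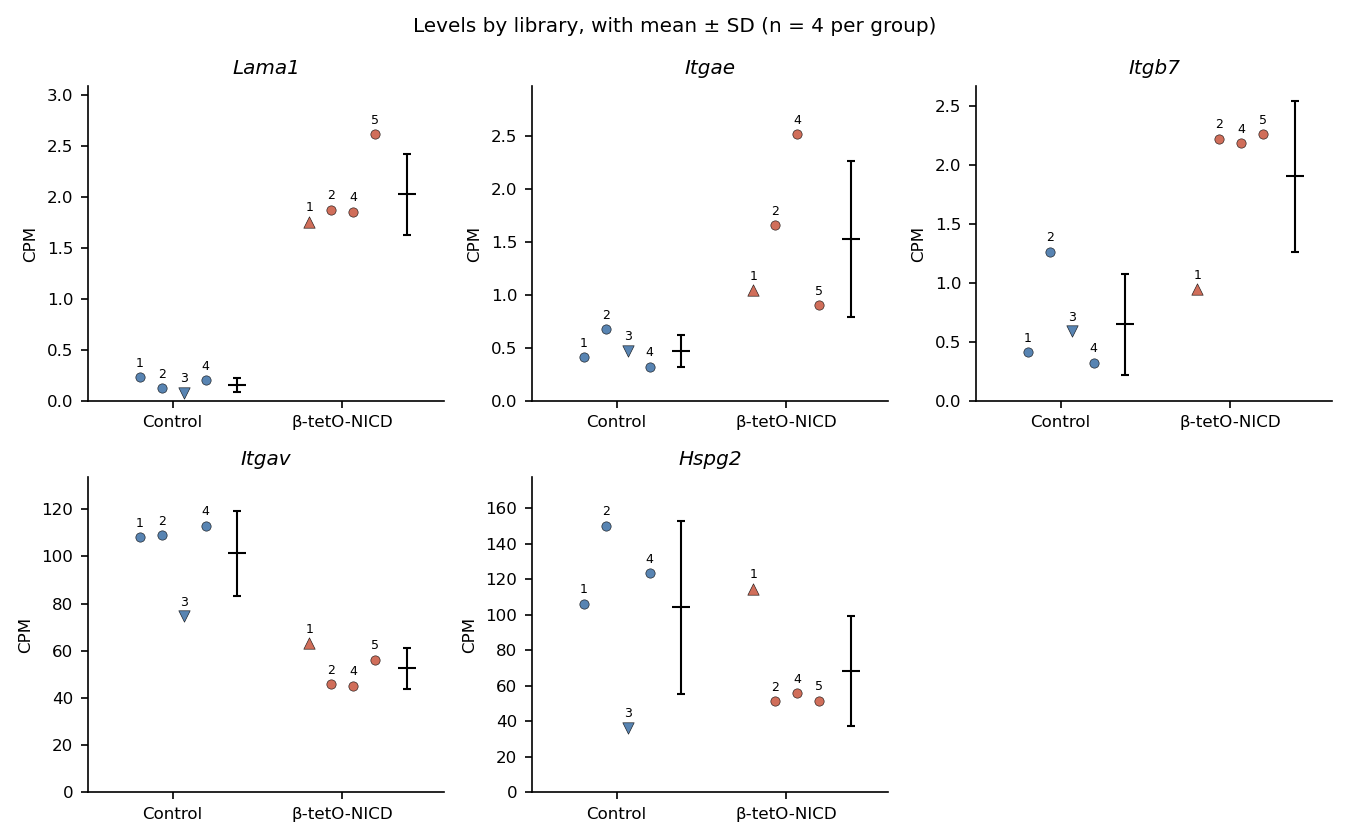
CPM of 5 members in each library, numbered, with the mean ± SD of 4 libraries per group beside the points, on linear axes that start at 0. Lama1, Itgae and Itgav have separate groups, in Itgb7 β-tetO-NICD 1 lies below Control 2, and in Hspg2 Control 3 (36.5 CPM) is the lowest of all 8 libraries while β-tetO-NICD 1 (115 CPM) lies among the controls.

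Levels of the long matrix genes varied between libraries in the direction of each library's length trend. Control 3 was the lowest control in 15 of 15 laminin, nidogen, perlecan and agrin genes and in 34.0% of all tested genes. β-tetO-NICD 1 was the highest of its group in 13 of these 15 and in 38.4% of all tested genes. Among the 10 laminin chains other than Lama1, 9 had a negative log2 fold change, with a median of -0.43 and none called, whereas 7 were positive, with a median of 0.06, once an offset for each library's length trend was added. The 2932 genes with the longest transcripts, those in the top 20% by length at 5253 bases or more, had a median of -0.39, with 79.6% negative, and the 22 members among them had a median of -0.44, with 18 negative. Across the 45 members, Spearman's rho between transcript length and log2 fold change was -0.46, beside -0.49 across all genes, which share the same libraries. The sign of the laminin chains as a family thus depended on the treatment of length.

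Without Control 3 and β-tetO-NICD 1, a choice made after the data were seen, all 10 of these laminin chains were negative. Lama5 fell by 1.04 on the log2 scale (adjusted p = 0.00262, edgeR) and Lamc1 by 0.94 (adjusted p = 0.00653), and Lama2, Lama3 and Lama4 passed as well. Hspg2 fell by 1.26 (adjusted p = 0.00162) and Nid1 by 1.03 (adjusted p = 0.0100) in the same fit. It also called Itga1, Itga2, Itga9, Itgam, Itgav, Itgb2l, Itgb4 and Dag1 as lower and Lama1, Itgae, Itgb7 and Itgb1bp1 as higher. Over 31 alternatives the adjusted p ranged from 0.00262 to 0.674 for Lama5, from 0.00653 to 0.982 for Lamc1, from 0.00162 to 0.642 for Hspg2 and from 0.0100 to 0.575 for Nid1. These calls stand against a background in which 39.5% of all genes passed, close to the 44.4% of members (4 higher and 16 lower of 45). The share of all genes by direction was not taken for this fit. Leaving out Control 3 alone called 2 of 45 tested members, Lama1 and Itgav, 4.44%, beside 5.78% of all genes. Leaving out β-tetO-NICD 1 alone called 10 of 43 tested members, 23.3%, beside 33.2% of all genes, and Lama1 could not be tested there. With 10 counts asked of 3 libraries only, the same omission called 11 of 45, 24.4%, beside 33.1% of all genes. With the length offset, 4 of 45 members passed, 8.89%, beside 10.5% of all genes. Lama1 (log2 fold change 4.28), Itgae (1.78) and Itgav (-0.51) were called again. Agrn was added as higher (log2 fold change 0.80, adjusted p = 0.0222, edgeR with length offset, and up to 0.918 under other alternatives). The cause of the length trends was not tested.

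**Figure D4:**
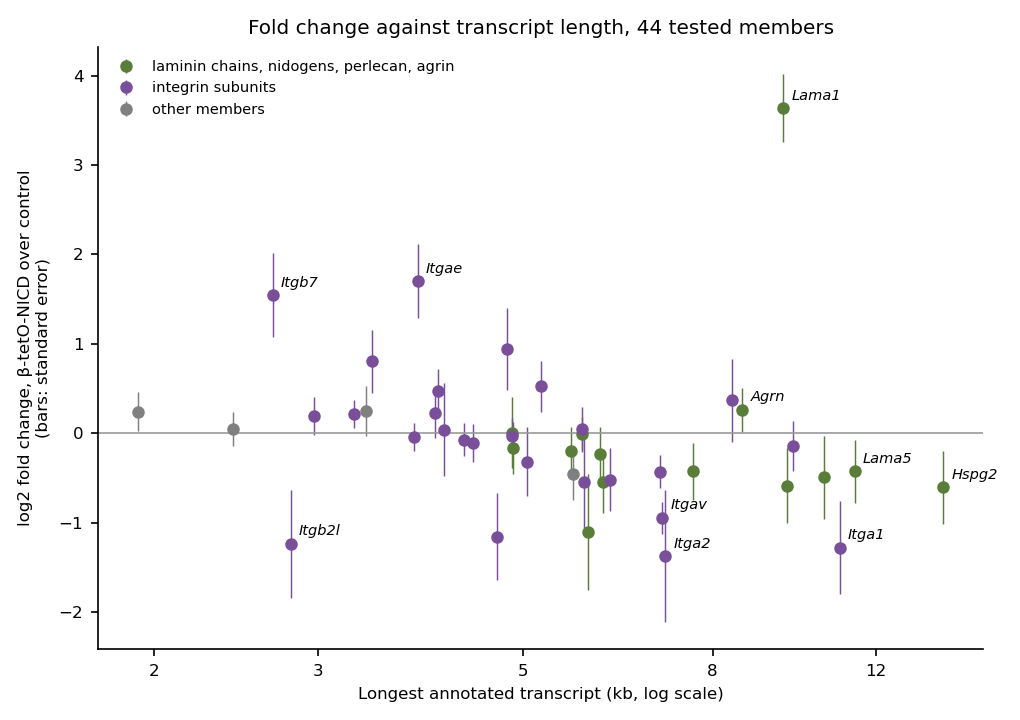
Log2 fold change of β-tetO-NICD over control for 44 of the 45 tested members against the length of the longest annotated transcript in kb, on a log axis. Points are genes, bars are standard errors, and colours separate matrix genes, integrin subunits and other members. No correction for length was applied here, and Hspg2, the longest member, lies at -0.61 and Lama1 at 3.63.

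Among integrins, the laminin-binding α subunits differed by less than their spread. Itga6, whose α6 subunit pairs with β1 or β4, was the highest of them per length at 16.2 ± 2.67 CPM per kb in controls and 15.4 ± 3.27 in β-tetO-NICD islets (SD, n = 4 each). It had 76.5, 79.0, 53.5 and 70.4 CPM in controls and 87.2, 61.4, 61.2 and 55.8 CPM in β-tetO-NICD libraries (log2 fold change -0.073, SE 0.19, adjusted p = 0.80, edgeR). Itga3, an epithelial laminin receptor, averaged 51.0 ± 6.40 and 49.8 ± 12.7 CPM (SD, n = 4 each). Itga7, the receptor of muscle and vessel walls, ranged from 3.08 to 6.67 CPM and from 4.48 to 6.68 CPM.

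Itgav (chr2:83724397-83806916, GRCm38, plus strand) led the RGD-binding α subunits and was the only member that fell. It had 2344, 2584, 1889 and 2787 counts in Control 1 to 4 and 1329, 1048, 1362 and 1118 counts in β-tetO-NICD libraries. In CPM this was 108.0, 109.0, 74.7 and 113 against 63.1, 45.7, 45.2 and 56.3. Every control was above every β-tetO-NICD library, with Control 3 the lowest control and β-tetO-NICD 1 the highest of its group. The log2 fold change was -0.94 (SE 0.18, adjusted p = 0.0161, edgeR), and per length the level went from 14.3 ± 2.52 to 7.45 ± 1.23 CPM per kb (SD, n = 4 each). With the length offset the log2 fold change was -0.51 (adjusted p = 0.0431). The call was lost without Control 4 (adjusted p = 0.0512), β-tetO-NICD 2 (adjusted p = 0.0679) or β-tetO-NICD 4 (adjusted p = 0.0605), at log2 fold changes of -0.87 to -1.06 over all 8 omissions. Over 31 alternatives its adjusted p was between 6.34e-05 and 0.0679. An exon of Gm13684 overlaps the gene on the opposite strand.

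None of the β subunits that pair with αv passed the test. Itgb5, the vitronectin receptor subunit and the most abundant β subunit after Itgb1 per length, had 46.4 to 70.9 CPM in controls and 62.6 to 76.3 CPM in β-tetO-NICD islets (log2 fold change 0.21, SE 0.16, adjusted p = 0.355, edgeR). Itgb3, the partner of αv in endothelium and of αIIb in platelets, averaged 2.93 ± 0.416 and 3.03 ± 0.652 CPM. Itgb8, which with αv activates TGF-β, ranged from 8.03 to 16.2 CPM and from 6.04 to 32.4 CPM, with β-tetO-NICD 1 the highest of all. Itgb6, the epithelial partner in TGF-β activation, had 0.37, 1.52, 0.63 and 1.22 CPM in controls and 1.33, 1.53, 1.46 and 2.92 CPM in β-tetO-NICD libraries (log2 fold change 0.94, SE 0.46, adjusted p = 0.186, edgeR).

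Itga5 (chr15:103344286-103366763, GRCm38, minus strand) and Itgb1 (chr8:128685654-128733200, plus strand) encode the subunits of the classic fibronectin receptor. Both were assayed separately in the study, which reported them as unchanged in Notch-active islets. Itgb1 was the most abundant member per length, 64.9 ± 3.90 CPM per kb in controls and 63.1 ± 10.04 in β-tetO-NICD islets (SD, n = 4 each). It had 229, 264, 244 and 253 CPM in controls and 274, 252, 251 and 186 CPM in β-tetO-NICD libraries. The ranges overlapped, with β-tetO-NICD 5 the lowest and β-tetO-NICD 1 the highest of all (log2 fold change -0.040, SE 0.16, adjusted p = 0.876, edgeR). Itga5 was far lower per length, at 1.71 ± 0.408 and 1.59 ± 0.222 CPM per kb (SD, n = 4 each). It had 8.57, 9.54, 5.65 and 6.49 CPM in controls and 8.31, 6.63, 7.13 and 5.99 CPM in β-tetO-NICD libraries (log2 fold change -0.11, SE 0.22, adjusted p = 0.747, edgeR). Both signs turned positive with the length offset, at values of 0.034 for Itgb1 and 0.045 for Itga5.

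The remaining RGD receptors were low. Itga8, the nephronectin receptor of mesenchyme, had 0.47 to 2.49 CPM in controls and 0.48 to 1.47 CPM in β-tetO-NICD islets. Itga2b, the platelet fibrinogen receptor subunit, had 0.63 to 1.22 CPM and 1.004 to 2.11 CPM (log2 fold change 0.80, SE 0.35, adjusted p = 0.152, edgeR). The platelet marker list summed to 4.29 to 6.09 CPM in controls and 4.51 to 17.3 CPM in β-tetO-NICD islets, with 0 of its 4 tested genes of 8 called but all 4 positive. Of the 4 too low to test, Gp9 had 3, 1, 3 and 4 counts in controls and 5, 20, 40 and 14 counts in β-tetO-NICD libraries, Gp6 had at most 8 counts in any library, and Ppbp and Treml1 had at most 1 count in a control and 0 in every β-tetO-NICD library. The part of platelets in the Itga2b values was not tested.

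The collagen-binding α subunits had the most negative family median, -1.28 over 3 tested genes, with none called, and -0.75 with the length offset. Itga1, the collagen IV receptor of vessels and mesenchyme, led them per length in controls at 1.26 ± 0.541 CPM per kb (SD, n = 4). It had 14.7, 18.1, 5.22 and 17.4 CPM in Control 1 to 4 and 12.01, 3.67, 4.78 and 2.37 CPM in β-tetO-NICD libraries (log2 fold change -1.28, SE 0.52, adjusted p = 0.134, edgeR). Itga2, the fibrillar collagen receptor of epithelia and platelets, had 3.87, 3.38, 1.94 and 4.66 CPM against 3.89, 0.44, 0.83 and 0.20 CPM (log2 fold change -1.37, SE 0.73, adjusted p = 0.218, edgeR). Its counts in β-tetO-NICD 2, 4 and 5 were 10, 25 and 4. In both genes Control 3 was the lowest control, and β-tetO-NICD 1 lay among or near the controls. Without β-tetO-NICD 1 alone, Itga1 fell by 1.93 (adjusted p = 0.0114, edgeR) and Itga2 by 2.76 (adjusted p = 0.00599) on the log2 scale, while with the length offset the log2 fold changes were -0.75 (adjusted p = 0.137) and -1.16 (adjusted p = 0.214), and over the alternatives the adjusted p reached 0.295 for Itga1 and 0.411 for Itga2. Itga10, a cartilage receptor, had 1.86 to 2.44 CPM and 0.57 to 2.32 CPM, and Itga11 stayed between 0.23 and 0.62 CPM in all 8 libraries.

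Itga4 and Itga9 encode subunits that bind VCAM-1, osteopontin and fibronectin variants. Itga4, the higher of them per length at 2.63 ± 0.629 CPM per kb in controls (SD, n = 4), had 18.9, 27.5, 23.0 and 33.3 CPM in controls and 33.6, 13.0, 22.0 and 24.4 CPM in β-tetO-NICD libraries. The groups overlapped (log2 fold change -0.14, SE 0.28, adjusted p = 0.738, edgeR). Itga9 was the steadier, with 7.55 to 8.99 CPM in controls and 5.28 to 7.88 CPM in β-tetO-NICD islets (log2 fold change -0.43, SE 0.19, adjusted p = 0.148, edgeR). Only β-tetO-NICD 1, at 7.88 CPM, overlapped the controls. Without it Itga9 fell by 0.56 (adjusted p = 0.0398, edgeR), while with the length offset the log2 fold change was -0.039 (adjusted p = 0.875).

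The leukocyte integrins differed among themselves. Itgae (chr11:73090583-73147446, GRCm38, plus strand) encodes αE, which with β7 holds lymphocytes to E-cadherin on epithelia. It had 9, 16, 12 and 8 counts in Control 1 to 4 and 22, 38, 76 and 18 counts in β-tetO-NICD libraries, or 0.41, 0.68, 0.47 and 0.32 against 1.04, 1.66, 2.52 and 0.91 CPM. Every β-tetO-NICD library was above every control, with the widest spread among the former (log2 fold change 1.70, SE 0.42, adjusted p = 0.0414, edgeR). The call was lost in 6 of 8 fits that left out 1 library, at log2 fold changes of 1.35 to 1.93 over all 8, and remained without β-tetO-NICD 1 or β-tetO-NICD 5. It was also lost with an endothelial score (adjusted p = 0.0882), a mesenchymal score (adjusted p = 0.118) or the presence of Eif2s3y counts (adjusted p = 0.0816) as a covariate. In that order, these fits called 3.56%, 2.45% and 4.91% of all genes, beside 6.76% without a covariate. Over 30 alternatives the adjusted p of Itgae was between 0.00672 and 0.124.

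Itgb7 (chr15:102215995-102231944, GRCm38, minus strand), the partner of αE and of α4, showed a like pattern without passing the test. It had 9, 30, 15 and 8 counts in controls and 20, 51, 66 and 45 counts in β-tetO-NICD libraries. In CPM, β-tetO-NICD 2, 4 and 5 were close together at 2.23, 2.19 and 2.27, whereas β-tetO-NICD 1, at 0.95, lay below Control 2 at 1.27 (log2 fold change 1.55, SE 0.47, adjusted p = 0.0727, edgeR). It passed without β-tetO-NICD 1 (adjusted p = 0.0167) or Control 2 (adjusted p = 0.0382), without Control 3 and β-tetO-NICD 1 together (adjusted p = 0.0282) and with DESeq2 (adjusted p = 0.0189), with 0.0167 to 0.186 over 30 alternatives. The 12 lymphocyte markers summed to 14.7 to 24.7 CPM in controls and 24.2 to 34.8 CPM in β-tetO-NICD islets. Most of this sum was Cd79a, and 0 of 6 tested markers passed. The tested T cell markers had overlapping groups. Cd8a had 8, 17, 11 and 17 control counts against 8, 20, 15 and 9 (adjusted p = 0.995, edgeR), Cd3d 5, 26, 8 and 22 against 8, 21, 12 and 33 (adjusted p = 0.690) and Cd4 10, 12, 4 and 4 against 23, 16, 17 and 5 (adjusted p = 0.220). The T and NK cell markers too low to test had more counts in at least 3 of 4 β-tetO-NICD libraries than in any control. Cd3g had 3, 1, 5 and 0 counts in controls and 6, 24, 17 and 34 counts in β-tetO-NICD libraries, with separate groups. Nkg7 had 0, 0, 2 and 3 against 3, 14, 14 and 25 counts, Klrb1c 0, 3, 2 and 2 against 3, 17, 8 and 5 counts, and Cd3e 2, 1, 5 and 1 against 7, 7, 3 and 10 counts. Of the B cell markers, Ms4a1 had 65 counts in β-tetO-NICD 1 and at most 6 in any other library. Their part in the Itgae and Itgb7 values was not tested.

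Itgax, the dendritic cell and macrophage αX subunit, was the highest leukocyte α subunit per length, at 1.06 ± 0.345 CPM per kb in controls and 1.48 ± 0.14 in β-tetO-NICD islets (SD, n = 4 each). It had 4.06, 6.25, 2.93 and 3.97 CPM in controls and 5.89, 6.81, 5.64 and 5.59 CPM in β-tetO-NICD libraries (log2 fold change 0.48, SE 0.25, adjusted p = 0.208, edgeR). Control 2 alone overlapped the β-tetO-NICD range. Itgam, the αM subunit of the complement receptor on myeloid cells, had the opposite sign, with 3.41, 3.25, 2.85 and 6.45 CPM in controls and 3.66, 1.09, 1.66 and 0.76 CPM in β-tetO-NICD libraries (log2 fold change -1.15, SE 0.48, adjusted p = 0.14, edgeR). Without β-tetO-NICD 1 Itgam fell by 1.75 (adjusted p = 0.0127, edgeR), and without Control 4, its highest library, the log2 fold change was -0.82 (adjusted p = 0.326). Itgal, the αL subunit of LFA-1, had 1.15 to 2.12 CPM and 1.81 to 2.80 CPM, and Itgad 0.17 to 0.88 CPM and 0.35 to 0.71 CPM. Their partner Itgb2 had 3.24 to 4.01 CPM and 3.37 to 4.8 CPM (log2 fold change 0.20, SE 0.22, adjusted p = 0.539, edgeR). The 12 macrophage markers summed to 169 to 223 CPM in controls and 249 to 364 CPM in β-tetO-NICD islets, with 2 called higher (Cd14 and C1qa) and none at 0. Their part in these values was not tested.

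Of the last β subunits, Itgb4, which joins α6 in hemidesmosomes, had 3.36 to 8.43 CPM in controls and 2.67 to 7.22 CPM in β-tetO-NICD islets (log2 fold change -0.52, SE 0.35, adjusted p = 0.321, edgeR). It passed without Control 3 and β-tetO-NICD 1 together, at -1.04 (adjusted p = 0.0129), over alternatives that reached 0.624. Itgb2l, a neutrophil relative of Itgb2, had 0.41 to 1.46 CPM and 0.15 to 0.85 CPM, with 4, 10 and 3 counts in β-tetO-NICD 2, 4 and 5 (log2 fold change -1.24, adjusted p = 0.185, edgeR). It fell by 1.95 without β-tetO-NICD 1 (adjusted p = 0.0266), with up to 0.403 over the alternatives. Counts of such near relatives depend on how shared reads were assigned. Over all 26 tested integrin subunits, 12 log2 fold changes were positive and 14 negative, with a median of -0.036, beside 0.00075 over all genes. The median became 0.14 with the length offset, beside 0.0023 over all genes. With upper-quartile normalization it became 0.038, beside 0.077 over all genes.

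Of the receptors that are not integrins, dystroglycan (Dag1), which binds laminin and agrin through its sugar chains, had 130, 115, 77.1 and 107 CPM in controls and 120, 66.5, 79.9 and 45.3 CPM in β-tetO-NICD libraries. Its range was wide in the latter (log2 fold change -0.46, SE 0.28, adjusted p = 0.273, edgeR). Without β-tetO-NICD 1 Dag1 fell by 0.75 (adjusted p = 0.0354, edgeR) and without Control 3 as well by 0.88 (adjusted p = 0.0128), while with the length offset the log2 fold change was -0.21 (adjusted p = 0.459). Per length it was second to Itgb1 in controls, at 19.0 ± 3.95 CPM per kb (SD, n = 4), close to Itgb5 at 18.1 ± 3.14, Itga6 at 16.2 ± 2.67, Bcam at 15.1 ± 2.12 and Itgav at 14.3 ± 2.52, neighbours that did not differ beyond their spread. Bcam, the laminin α5 receptor also known as Lutheran, averaged 36.6 ± 5.14 CPM in controls against 37.9 ± 8.77 CPM in β-tetO-NICD islets (SD, n = 4 each). Itgb1bp1, a cytoplasmic protein that binds the β1 tail, had 16.8 to 25.7 CPM and 15.7 to 30.7 CPM (log2 fold change 0.24, SE 0.22, adjusted p = 0.450, edgeR). It passed without Control 3 and β-tetO-NICD 1 together, at 0.53 (adjusted p = 0.0280, edgeR), and its sign turned with the length offset, to -0.032 (adjusted p = 0.898). Itgb3bp, a centromere protein also known as CENP-R, had 7.42 to 11.6 CPM and 7.63 to 18.0 CPM, and Itgb1bp2, melusin of striated muscle, had at most 5 counts in any library.

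**Figure D5:**
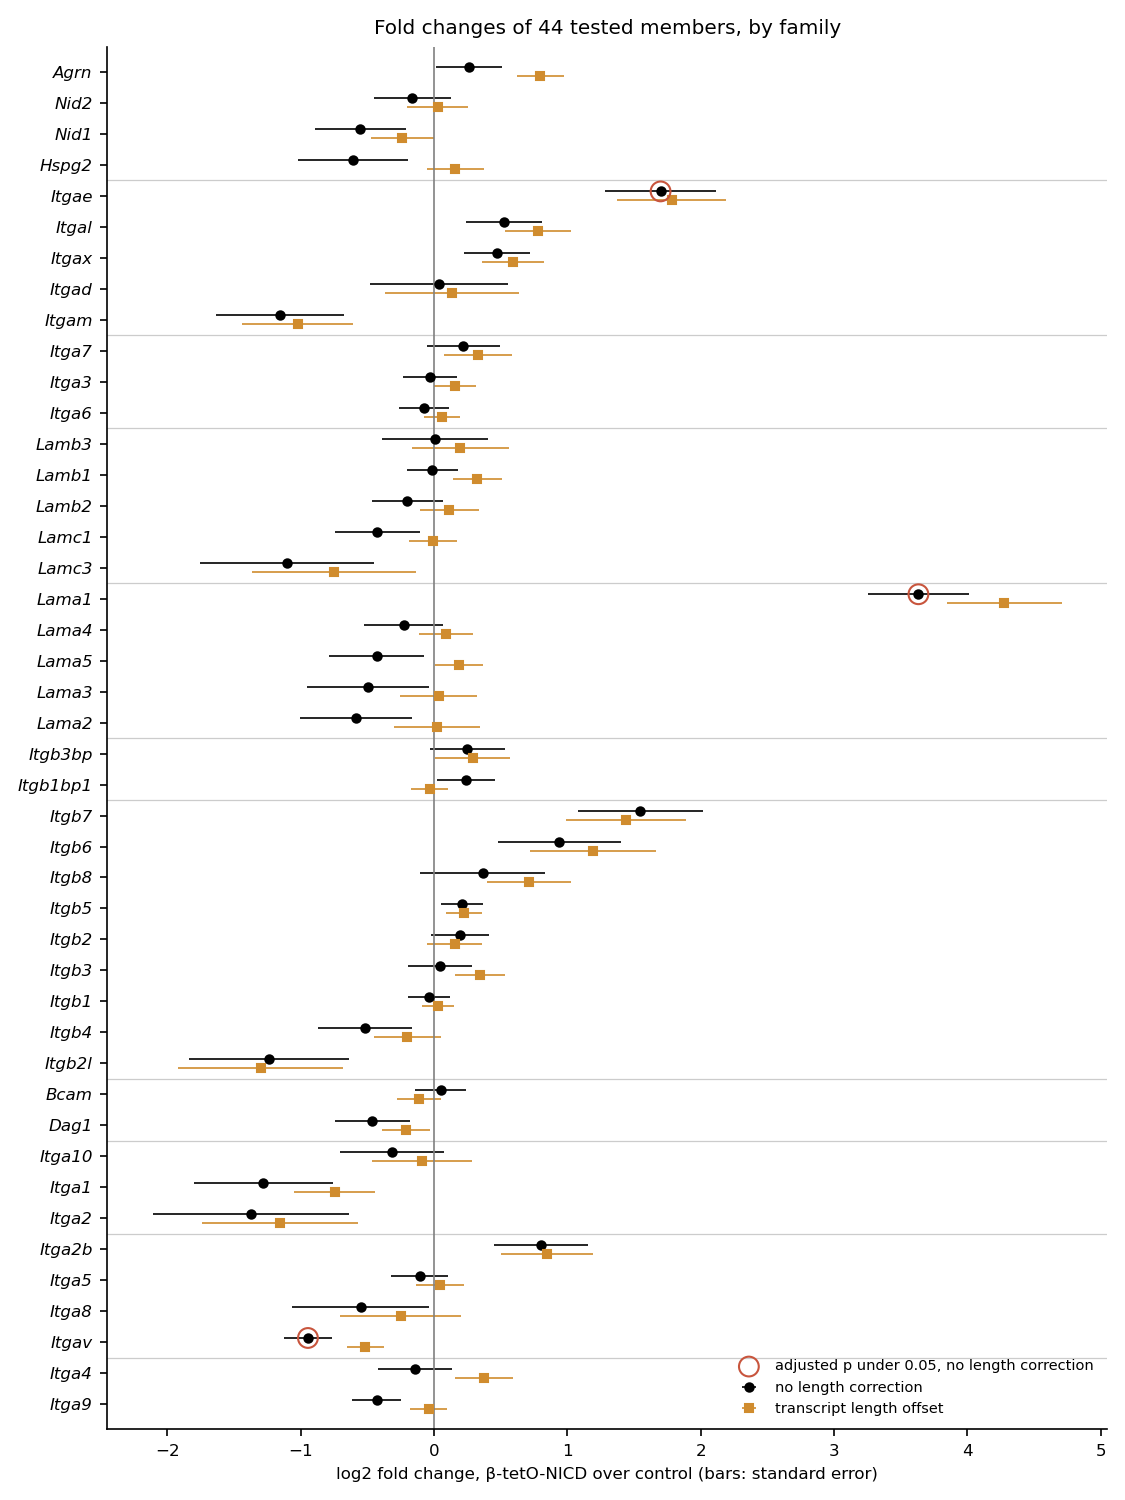
Log2 fold change of β-tetO-NICD over control for 44 of the 45 tested members, grouped by family, with standard errors as bars. Black circles are without and orange squares with the transcript length offset, and red rings mark an adjusted p under 0.05 without it. Lama1 (3.63), Itgae (1.70) and Itgav (-0.94) are ringed, and most laminin chains shift to the right with the offset.

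Genes around these members were read from 4 lists. Of 33 tested genes among 37 other integrin ligands, 1 rose and 2 fell, 9.09% beside 6.76% of all genes. Edil3, a secreted ligand of αv integrins, went from 4.02 ± 0.979 to 24.1 ± 10.9 CPM (SD, n = 4 each; log2 fold change 2.58, SE 0.34, adjusted p = 0.00289, edgeR), while Emilin1, an elastic fibre protein, fell by 1.58 (SE 0.25, adjusted p = 0.00699) and Adam9, a membrane protease, by 0.90 (SE 0.23, adjusted p = 0.0468) on the log2 scale. Of 38 tested adaptor and adhesome genes, 1 rose, 2.63%, the tetraspanin Cd81 (log2 fold change 1.14, SE 0.17, adjusted p = 0.00557), and none fell, so that talins, kindlins, vinculin and focal adhesion kinase were among the 37 that did not pass.

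Of 19 tested genes among 20 hemidesmosome and basement membrane linkers, 2 rose and 1 fell, 15.8% beside 6.76% of all genes. Ntn4, a netrin that binds laminin γ chains, rose by 1.06 on the log2 scale (SE 0.18, adjusted p = 0.00827, edgeR), from 13.1 ± 1.71 to 27.4 ± 4.81 CPM (SD, n = 4 each). Ntn1, the axon guidance netrin, rose by 1.009 (SE 0.26, adjusted p = 0.0476), and Grip1, a scaffold for the Fras1 and Frem proteins, fell by 1.34 (SE 0.24, adjusted p = 0.0118). Of 26 tested genes among 29 of the dystrophin complex and the enzymes that glycosylate dystroglycan, 2 rose and none fell, 7.69% in all. These were Sgce, ε-sarcoglycan (log2 fold change 0.82, SE 0.17, adjusted p = 0.0198), and Sntg2, γ2-syntrophin (log2 fold change 1.72, SE 0.36, adjusted p = 0.0237). Over all 116 tested genes of the 4 lists, 17 had separate groups, 14.7%, beside 16.1% of all genes.

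Other cell types in the islets also bear on matrix genes, since capillaries and stroma make much of the basement membrane. The 14 endothelial markers summed to 621 to 1015.2 CPM in controls and 842 to 971 CPM in β-tetO-NICD islets, and the 14 mesenchymal markers to 262 to 881 CPM and 480.5 to 590 CPM, with 0 called and none at 0 in either list. In both lists Control 3 had the lowest sum (621 and 262 CPM) and Control 2 the highest (1015.2 and 881 CPM), as for most laminin chains. Acinar markers summed to 51382 to 102462 CPM in controls and 43774 to 155048 CPM in β-tetO-NICD islets, the latter in β-tetO-NICD 1, duct markers to 537 to 755 and 617 to 987 CPM, and Schwann cell markers to 120 to 170.5 and 104 to 139 CPM, with 0 called in each. Of the endocrine lists, 3 of 10 β cell markers were lower, 3 of 7 α cell markers higher and 1 of 4 δ cell markers higher. Insulin transcripts, the defining markers of the β cell, were abundant in every library, with Ins2 averaging 113042 ± 7024 CPM in controls against 76575 ± 30414 CPM in β-tetO-NICD islets (SD, n = 4 each). Of these cell types, the acinar, the endothelial and the mesenchymal marker score were each added as a covariate in a fit of all 45 tested members. Lama1 and Itgav passed with each score, Itgae with the acinar score only, and no other member passed with any of them. With the acinar, endothelial and mesenchymal score these were 6.67%, 4.44% and 4.44% of members, beside 7.61%, 3.56% and 2.45% of all genes. Itgb7 had an adjusted p of 0.0547 with the acinar, 0.112 with the endothelial and 0.161 with the mesenchymal score (edgeR). The part of the other cell types in the members' values was not tested.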

How the data were processed

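Islet RNA of 4 control and 4 β-tetO-NICD mice was sequenced. The submitters' processing notes name bcl2fastq, kallisto and limma and the builds GRCm38 and mm10, and the authors deposited whole-number counts per gene symbol from stranded poly(A) libraries, not normalized. The Kallisto version, the annotation release and the rounding of estimated counts are not given in the sources used here. A deposited table of the authors' own comparison (log2 fold changes, mean expression, p values and scores) was not used. Columns were assigned by name, and 0 columns of other samples were present. Pairs of libraries of a group differed by a chi-square of at least 31.5 per gene, over genes with at least 20 counts, so each was counted as 1 replicate. The sample titles carry separate codes, and the study names 4 controls and 4 β-tetO-NICD as the source of the islets.

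Genes with 10 counts or more in 4 or more libraries were compared in R 4.3.3 with edgeR 4.0.16 (TMM, glmQLFit, glmQLFTest, no covariate), after the fits were tested on simulated data. Fold changes are log2 of β-tetO-NICD over control, adjusted p values cover all tested genes, and 0.05 was the threshold. CPM were computed here from the deposited counts, with library sizes scaled by the TMM factors. Lengths and coordinates are those of GENCODE M21 (97.2% of tested genes). The length offset is a lowess trend (span 0.3) of each library's deviation on log transcript length. Alternatives were DESeq2 1.42.0, limma-voom (limma 3.58.1), other normalizations and filters, removal of the 10 largest genes, marker scores (mean log2 CPM of a marker list, prior count 2) or Eif2s3y as covariates, a replicate block and leaving out each library. Described in full were members past the threshold, the most abundant member per length of each family in controls, Itgb1 and Itga5. Other members are given by range, fold change or count, those shown library by library having been chosen after their values were seen. Related genes are named where past the threshold. Some genes enter the counts, medians and sums but are not reported individually here. The members and lists were chosen with earlier results of these data known.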

Additional observations from a re-analysis of the deposited data

Results flagged for a closer look

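Of 94 sets of 4 libraries (47 members in each group), 10 held a library that stood apart, its gap to the nearest library divided by the range of the group being above Dixon's 95% critical value, where chance gives about 1 in 20. β-tetO-NICD 1 was that library for Lama5 (0.943), Itgb7 (0.943), Hspg2 (0.930) and Itga2 (0.830), highest in Lama5, Hspg2 and Itga2 and lowest in Itgb7. β-tetO-NICD 5 was highest for Itgb6 (0.876), Lama1 (0.861) and Itgb3bp (0.843). Control 3 was lowest for Itgav (0.870) and Control 4 highest for Itgam (0.844). For Itgb1bp2, β-tetO-NICD 4 was lowest (0.867), on 0 counts against 1 in each of the others.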

How the results depend on the processing

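The count of members higher in β-tetO-NICD islets, 2 with all libraries, was 4 without Control 3 and β-tetO-NICD 1 together, 1 with the endothelial score, the mesenchymal score, no filter on low counts or the replicate block, and 0 where every library needed 10 counts, a filter that removes Lama1 and Itgae. Over the omissions of single libraries it was between 0 and 3, and Lama1 could not be tested when a β-tetO-NICD library was left out unless 10 counts were asked of 3 libraries only, a setting added, like the pair of omissions, after the data were seen. The count of lower members, 1, was 16 without both libraries, 2 with DESeq2, 8 without β-tetO-NICD 1 and between 0 and 8 over the omissions. Over all genes and both directions, 39.5% were called without both libraries and 2.14% to 33.2% over the omissions, with 33.2% without β-tetO-NICD 1. The share was 18.2% with DESeq2, 3.56% with the endothelial and 2.45% with the mesenchymal score. It was 4.49% with no filter, 6.42% with the replicate block and 7.44% where every library needed 10 counts. DESeq2 called 2739 of 15082 genes and edgeR 1020. The replicate block left Lama1 and Itgav called and Itgae at an adjusted p of 0.0557. It used numbers 1 and 2 alone, and deviations of same-numbered libraries correlated at 0.276 and -0.0901, so the numbers were not taken to pair mice. With the length offset, log2 fold changes changed sign in 15 of 45 members, Hspg2 (0.16), Lama2 (0.023), Lama3 (0.037), Lama4 (0.089), Lama5 (0.19), Itga4 (0.37), Itga5 (0.045), Itga6 (0.059), Itgb1 (0.034), Itgb1bp1 (-0.032), Lamb1 (0.32), Lamb2 (0.11), Nid2 (0.028), Itga3 (0.16) and Bcam (-0.11), none of them called in either fit. With upper-quartile normalization 4 changed sign, Itga6 (0.00040), Itgb1 (0.034), Itga3 (0.042) and Lamb1 (0.064). That scaling also moved the median of all genes, from 0.00075 to 0.077. Without both libraries 5 changed sign, Agrn (-0.028), Itgad (-0.41), Itgb3 (-0.19), Itgb8 (-0.45) and Lamb3 (-0.45). Omitting single libraries turned 0 to 6 members a fit, none called. It gave -0.37 to 0.059 for Itga4, -0.22 to 0.027 for Itga5, -0.23 to 0.0047 for Itga6 and -0.11 to 0.070 for Itgb1, and the positive values with the filter on 3 libraries were 0.0068 without Control 4 and 0.056 without β-tetO-NICD 2 for Itga4, 0.025 without Control 2 for Itga5, and 0.0024 and 0.068 without β-tetO-NICD 5 for Itga6 and Itgb1. The cause of the shifts with the length offset or on leaving out libraries was not tested. Itgb6 passed only with the Eif2s3y covariate. At 5 counts or fewer per library, Itgb1bp2 and the control level of Lama1 are near the floor of 3 counts. Single libraries of other members were as low. Itgb2l had 4 and 3 counts in β-tetO-NICD 2 and 5, and Itga2 had 4 in β-tetO-NICD 5. Itgad had 4 in Control 2 and Itga11 had 5 in Control 1.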
